A study of Mus musculus with 15 samples.

Results

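Prostaglandins are short-lived lipid signals, and the genes that make, destroy and sense them were followed here through macrophage polarization. The list named 10 mouse genes by their place in the pathway and not by a measured value, although the list was drawn up with earlier results of these arrays known. Each gene was read from a probe set annotated to no other gene, the brightest on average over the 15 arrays where there was a choice. That left 8 of the 10 genes, out of 18193 that could be read in this way: Ptgs2, Ptges, Ptges2, Tbxas1, Hpgds, Hpgd, Ptger2 and Ptger4. The probe sets of Ptges3 also match a pseudogene, Ptges3-ps, so no value is given for it. Ptgs1 was not analysed here.

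The cells were bone-marrow-derived mouse macrophages, cultured in M-CSF for 7 days. The M0 group was left untreated, the M1 group was polarized with E. coli lipopolysaccharide (LPS) and interferon-gamma, and the M2 group with IL-4 and IL-13. A further pair of groups consisted of M2 cells that also received nutlin-3a, which frees p53 from MDM2, or 10058F4, an inhibitor of MYC. Each group held 3 samples, called biological replicates, each read on its own array. The sources used here do not give the mice's strain, sex or age, how much of each agent was used, for how long, or in what vehicle. They also do not say if the 3 samples are different mice or cultures, so a p-value covers only the spread among the samples, possibly a technical one.

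Cyclooxygenases turn arachidonic acid, which phospholipases cut from membrane lipids, into the unstable intermediate PGH2. Ptgs2 encodes the inducible cyclooxygenase COX-2, and terminal synthases then fix the product: Ptges and Ptges2 encode PGE2 synthases, Hpgds the haematopoietic PGD2 synthase and Tbxas1 thromboxane synthase. Hpgd encodes 15-hydroxyprostaglandin dehydrogenase, which inactivates PGE2, and Ptger2 and Ptger4 encode EP2 and EP4, receptors that raise cyclic AMP when PGE2 binds. Macrophages are a main source of PGE2 in inflamed tissue, where COX-2 is the target of common pain killers.

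Promoters of 4 genes are shown because these genes had the largest differences between groups: Ptgs2 and Ptges rose together in M1 cells, Hpgd fell there, and Ptger2 rose with 10058F4. The stretches are the 250 bases before the annotated start, read 5′ to 3′ on the gene's strand, from RefSeq on GRCm38.p6, where all 8 genes were matched. Capitals mark matches, on either strand, to the GC box GGGCGG, the C/EBP site TTGCNNAA or the STAT6 site TTCNNNNGAA. The regions are chr1:150099781-150100030 (plus strand) for Ptgs2, chr2:30903298-30903547 (minus strand) for Ptges, chr8:56294302-56294551 (plus strand) for Hpgd and chr14:44987861-44988110 (plus strand) for Ptger2. The Ptges stretch lies inside the annotated gene (chr2:30889471-30931020), so the start used for it is not the gene's outermost one.
Ptgs2: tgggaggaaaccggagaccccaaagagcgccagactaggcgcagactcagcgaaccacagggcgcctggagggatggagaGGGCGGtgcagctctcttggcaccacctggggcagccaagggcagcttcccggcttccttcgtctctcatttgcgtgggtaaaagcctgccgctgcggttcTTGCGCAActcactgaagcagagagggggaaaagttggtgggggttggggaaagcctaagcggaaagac
Ptges: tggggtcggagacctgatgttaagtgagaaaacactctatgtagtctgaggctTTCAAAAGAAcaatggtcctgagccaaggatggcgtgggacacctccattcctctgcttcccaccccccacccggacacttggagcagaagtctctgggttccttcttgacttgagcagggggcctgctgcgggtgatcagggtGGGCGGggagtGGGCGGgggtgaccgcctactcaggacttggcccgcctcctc
Hpgd: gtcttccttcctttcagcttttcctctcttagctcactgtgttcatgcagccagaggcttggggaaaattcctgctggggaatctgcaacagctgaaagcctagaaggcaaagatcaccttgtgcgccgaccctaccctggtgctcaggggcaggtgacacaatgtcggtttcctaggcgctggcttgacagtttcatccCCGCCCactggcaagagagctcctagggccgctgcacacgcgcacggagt
Ptger2: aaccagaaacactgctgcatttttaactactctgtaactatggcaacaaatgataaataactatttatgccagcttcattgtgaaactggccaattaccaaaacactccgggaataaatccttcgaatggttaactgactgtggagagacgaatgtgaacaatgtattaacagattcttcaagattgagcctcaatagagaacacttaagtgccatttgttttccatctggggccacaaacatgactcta

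No match lay in the 250 bases before the Ptger2 start. Ptgs2 held a C/EBP site 69 to 62 bases before its start, and Ptges held a pair of GC boxes 53 to 48 and 42 to 37 bases before its start. After the starts, motifs were found in 3 of the 4 genes, shown here with the matches in capitals. In Ptgs2, bases 4 to 33 (chr1:150100034-150100063) held the cyclic AMP element half-site CGTCA overlapping the E-box CACGTG, the hexamer that MYC and MAX dimers can bind. Hpgd held a TATA box 5 to 10 bases after its start (stretch chr8:56294552-56294581), and Ptger2 a C/EBP site 40 to 47 bases after its start (stretch chr14:44988139-44988160).
Ptgs2 after the start: gtcaccactaCGTCACGTGgagtccgcttt
Hpgd after the start: gggcTATAAAagctgctgcggcgtccagac
Ptger2 after the start: ttttgttaggaTTGCTTAAgca
In the 300 bases around the start, from 250 before to 50 after, 35.7% of 32851 RefSeq promoters held a GC box, 20.8% a CGTCA half-site, 13.6% a TATA box, 10.8% a C/EBP site, 7.15% an E-box and 6.95% a STAT6 site. Searches for a kappa-B site, a p53 half-site, an interferon-gamma activated sequence (TTCNNNGAA), an AP-1 site (TGANTCA) and a TATA box (TATAAA) gave no match in the Ptgs2 window. Sequence outside these 300 bases was not searched, so Ptgs2 is not shown to lack such sites. A match is a string of letters and no measurement of binding.

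Values are log2 expression after RMA, so a log2 difference of 1 is a 2-fold difference, and levels of different genes are not compared because their probe sets differ. Errors of levels are SDs over 3 arrays, and errors of differences are standard errors (SE) of a limma fit on all 15 arrays, with p-values adjusted over all 13703 tested genes and called under 0.05. All 8 genes passed the filter on low values (3 or more arrays with a value over that array's 40th percentile), Ptgs2 on 7 arrays including the 3 of M1 and Hpgd on the 12 outside M1. The percentile, averaged per group, lay between 4.36 and 4.50 on the log2 scale, and a level below it is not shown to be above background. Arrays of a group correlated with r of 0.989 or more, the lowest in M1, where replicate 2 stood apart for several of the genes below. All 9 measured macrophage markers were above the percentile on every array, while 3 of 10 mast cell and basophil markers were. The beta-actin log2 signal at the 3' end minus that at the 5' end, a sign of RNA integrity, was 0.132 to 0.221 in M1, 0.290 to 0.395 in M0, 0.359 to 0.416 in M2, 0.427 to 0.492 with nutlin-3a and 0.468 to 0.516 with 10058F4. The same measure of Gapdh was -0.193 to -0.124 in M1, -0.286 to -0.256 in M0, and between -0.309 and -0.248 in the 3 M2 groups. The part of RNA integrity in the results was not tested.

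**Figure D1:**
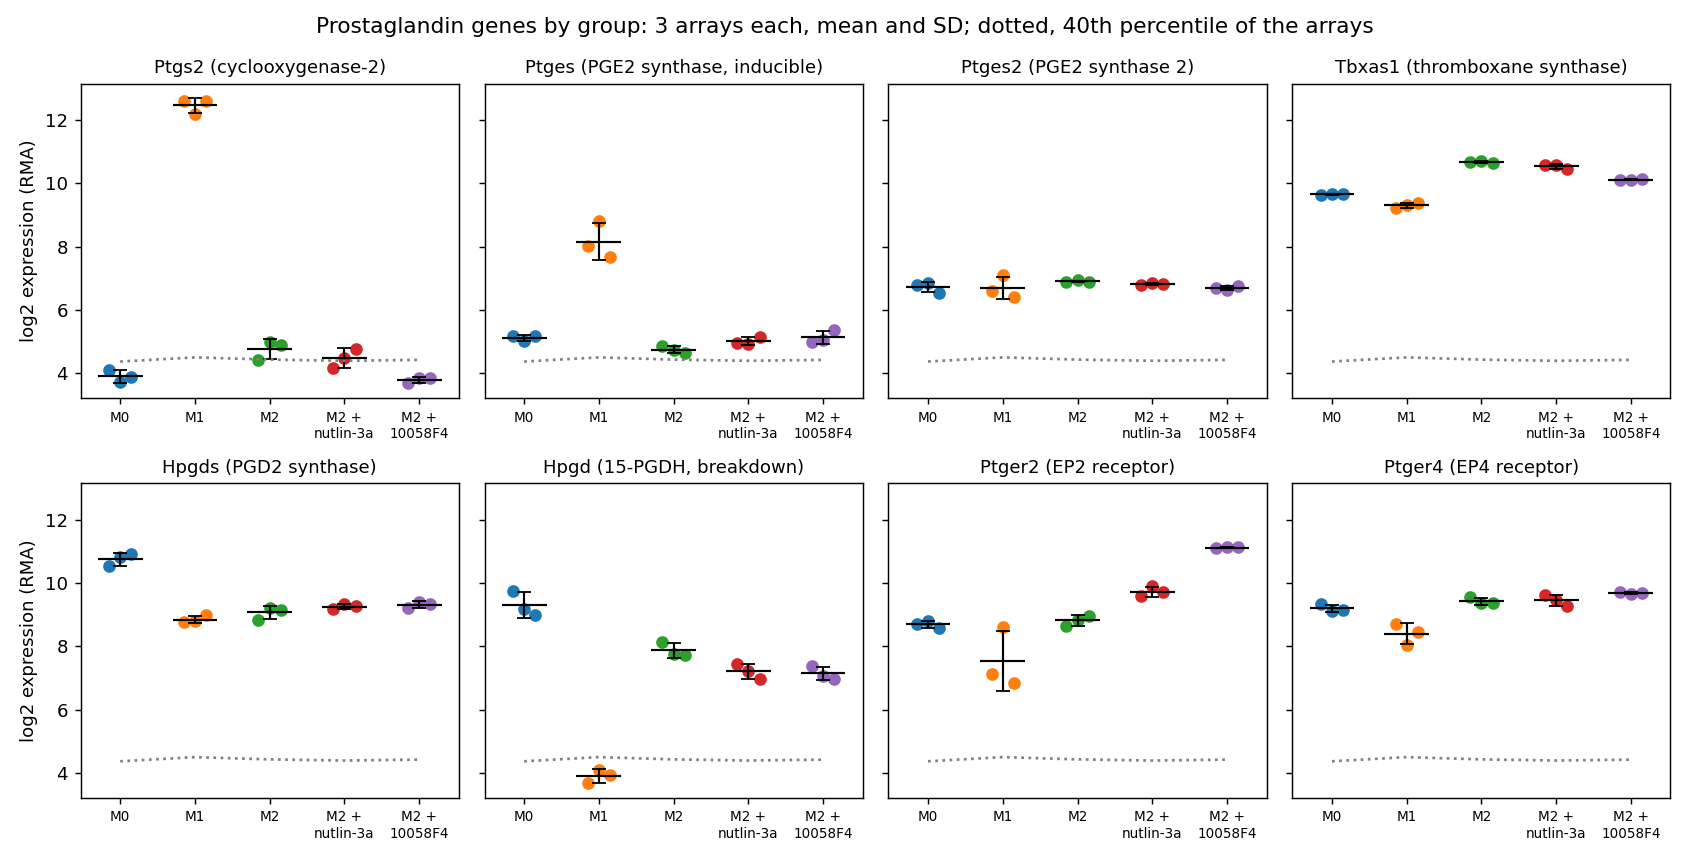
Log2 expression (RMA) of 8 prostaglandin genes in 5 groups of macrophages, 3 arrays each as points, with the mean (long bar) and SD; the dotted line is the mean 40th percentile of each group's arrays. Ptgs2 lay between 12.21 and 12.62 in M1 cells and at or below 4.99 in all other arrays, and Ptger2 was highest with 10058F4 (11.10 to 11.14).

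Polarization to M1 was compared with M0 to ask how LPS and interferon-gamma change the pathway. The 2 enzymes of inducible PGE2 synthesis rose and the PGE2-degrading enzyme fell, and the PGE2 receptors EP2 and EP4 and the PGD2 synthase were lower. In all, 7 of 8 genes were called, 2 higher and 5 lower, where 72.7% of all tested genes were called (33.6% higher, 39.1% lower), so the share itself says little about the pathway. The median size of the log2 difference was 1.53 for these genes and 0.42 over all tested genes.

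Ptgs2 read 12.60, 12.21 and 12.62 in the M1 arrays against 4.09, 3.71 and 3.87 in M0, with no overlap. The log2 difference was 8.58 (SE 0.17, adjusted p = 3.5e-14). Because all M0 arrays lay under the 40th percentile, the size is better stated against that percentile: M1 cells were still 8.11 above it on the log2 scale, or 277-fold. A further Ptgs2 probe set, 1417263_at, rose by 7.16 (SE 0.22). Dendritic cell markers were also higher in M1 (5 of 5 measured above the percentile, summed level 7.63 to 8.15) than in M0 (3 of 5, 6.98 to 7.19), and their part in these rises was not tested.

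Ptges, the inducible synthase that works together with COX-2, read 8.01, 8.81 and 7.66 in M1 and 5.18, 5.00 and 5.17 in M0. It rose 8.22-fold (log2 difference 3.04, SE 0.21, adjusted p = 8.7e-09), and replicate 2 was the highest M1 array. Its other probe sets, 1439747_at and 1449449_at, rose by 2.75 (SE 0.26) and 1.46 (SE 0.14), so the direction was shared while the size was not. Ptges2, the other PGE2 synthase, was 6.70 ± 0.36 in M1 and 6.72 ± 0.16 in M0 (SD, n = 3) and was not called (difference -0.02, 95% interval -0.31 to 0.26, adjusted p = 0.89). That interval comes with the M1 arrays spread from 6.41 to 7.09, replicate 2 being the highest. Without that array Ptges2 was called lower (-0.22, adjusted p = 0.035), and with each array centred on its median it was called higher (0.30, adjusted p = 0.026), which is about the shift of all genes under centring (median 0.321).

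The synthases of other prostanoids moved the opposite way from Ptges. Hpgds read 8.77, 8.79 and 8.99 in M1 against 10.53, 10.82 and 10.93 in M0, a difference of -1.91 (SE 0.12, adjusted p = 2.8e-09). Since mast cells also make PGD2, their markers are given beside it: the summed level of 10 mast cell and basophil markers was 7.48 to 7.60 in M0 and at least 7.97 in M1, with Mcpt4, Hdc and Gata2 above the percentile in every group and Kit, Cpa3, Fcer1a and Ms4a2 not above it on all 3 arrays of any group. Their part was not tested. The summed level of 3 measured eosinophil markers was lower beside Hpgds and Hpgd, at 7.42 to 7.94 in M0 and 5.53 to 5.83 in M1. Siglecf alone was above the percentile in M0 and none in M1. The median of the marker means did not fall (4.03 in M0 and 4.13 in M1). The part of these markers was not tested. In cultures measured in bulk, fewer cells of a type and less RNA per cell cannot be told apart. Tbxas1 was 9.31 ± 0.08 in M1 and 9.65 ± 0.02 in M0, a small fall without overlap (-0.34, SE 0.06, adjusted p = 0.00012). With arrays centred on their median this fall ended (-0.02, adjusted p = 0.83).

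Hpgd read 3.66, 4.09 and 3.93 in M1, all under the percentile, against 9.76, 9.19 and 8.99 in M0. It was the largest fall among the 8 genes (-5.42, SE 0.19, adjusted p = 9.5e-12), and M0 cells were 4.82 above the M1 percentile, or 28.2-fold. The probe set used, 1419905_s_at, carries a suffix for sequences shared between transcripts. The other Hpgd probe set, 1419906_at, was dim in all groups (4.82 in M0 and 4.14 in M1) and fell by 0.68 (SE 0.17, adjusted p = 0.0023).

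Of the receptors, Ptger4 (EP4) read 8.71, 8.04 and 8.47 in M1 and 9.33, 9.13 and 9.16 in M0, a fall of 0.80 on the log2 scale (SE 0.14, adjusted p = 0.00011). Its other probe set, 1421073_a_at, fell by 1.32 (SE 0.15). Ptger2 (EP2) read 7.13, 8.62 and 6.85 in M1 and 8.71, 8.79 and 8.59 in M0. Its M1 replicate 2 lay inside the M0 range while the other M1 arrays lay well below it. The difference was -1.16 (SE 0.31, adjusted p = 0.0037), and -1.70 without that array (adjusted p = 1.7e-08).

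**Figure D2:**
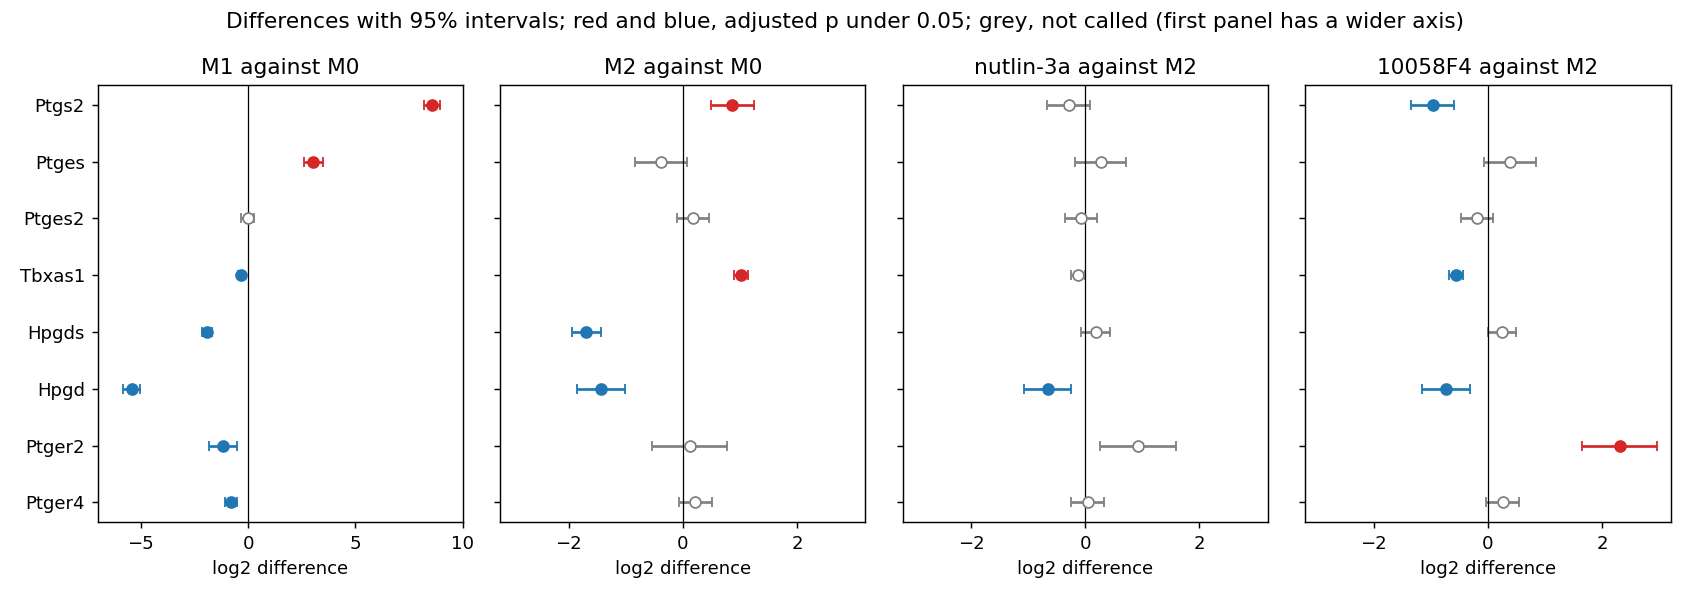
Log2 differences of the 8 genes in 4 comparisons, with 95% intervals of the limma fit; filled red and blue points are called higher and lower at an adjusted p under 0.05, and open grey points are not called. In M1 against M0 Ptgs2 stood at 8.58 and Hpgd at -5.42, and with 10058F4 Ptger2 stood at 2.31.

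M2 cells were compared with M0 to ask what IL-4 and IL-13 do to the same genes. Thromboxane synthase rose, and the PGD2 synthase and the PGE2-degrading enzyme fell. Of the 8 genes 4 were called, 2 higher and 2 lower, against 31% of all tested genes (12.7% higher, 18.4% lower). The median size of the difference was 0.62, and 0.17 over all genes.

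Tbxas1 read 10.68, 10.70 and 10.65 in M2, above all M0 arrays (9.63, 9.67 and 9.66), a 2.03-fold rise (1.02, SE 0.06, adjusted p = 1.7e-08). Platelet and megakaryocyte markers, which would mark another source of this enzyme, had summed levels of 8.41 to 8.52 in M2 and 8.30 to 8.53 in M0, with 5 of 6 measured above the percentile in M2 (Ppbp added) and 4 in M0, and their part was not tested. Hpgds read 8.84, 9.23 and 9.15 and so fell by 1.69 (SE 0.12, adjusted p = 1.2e-07). Hpgd read 8.15, 7.75 and 7.74 and fell by 1.44 (SE 0.19, adjusted p = 5.9e-05), while the dim probe set 1419906_at differed by -0.09 (adjusted p = 0.74). The summed level of the eosinophil markers was 6.80 to 7.37 in M2, below the 7.42 to 7.94 of M0, beside both falls. Siglecf alone was above the percentile in both groups, and the median of the marker means did not fall (4.12 in M2, 4.03 in M0). The part of these markers was not tested. M2 cells kept a level of Hpgd far above the M1 arrays.

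Ptgs2 was called higher in M2 (0.87, SE 0.17, adjusted p = 0.0016), but with M2 arrays at 4.40, 4.99 and 4.89 it stayed close to the 40th percentile. The other Ptgs2 probe set differed by 0.20 (adjusted p = 0.54), at 2.90 in M2 and 2.70 in M0, below the percentile. Ptges was 4.74 ± 0.11 in M2 and 5.12 ± 0.10 in M0 and was not called in the main fit (-0.38, 95% interval -0.83 to 0.07, adjusted p = 0.19). With the 6 arrays alone it was called lower (adjusted p = 0.011). Also not called in the main fit were Ptges2 (0.18, interval -0.11 to 0.46), Ptger4 (0.22, interval -0.07 to 0.52) and Ptger2 (0.12, interval -0.54 to 0.78). The smallest adjusted p of those 3 was 0.24.

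Set directly against each other, M1 and M2 cells differed in 6 of the 8 genes, 2 higher and 4 lower in M1, against 64.7% of all tested genes (28.1% higher, 36.5% lower). Ptgs2 was 7.71 higher in M1 (SE 0.17, adjusted p = 9.2e-14) and Ptges 3.42 higher (SE 0.21, adjusted p = 2.4e-09). Lower in M1 were Hpgd (-3.98, SE 0.19), Tbxas1 (-1.36, SE 0.06), Ptger2 (-1.28, SE 0.31) and Ptger4 (-1.02, SE 0.14), with adjusted p-values from 5.4e-11 to 0.0021. Tbxas1 was the gene that passed the threshold in opposite directions in M1 and M2 against M0. This comparison tests whether M1 and M2 differ, and not whether they moved in opposite directions from M0. The Tbxas1 fall in M1 against M0 ended with centred arrays (-0.02, adjusted p = 0.83). Hpgds had fallen in both states: M1 and M2 arrays overlapped and were not called different (-0.22, 95% interval -0.48 to 0.03, adjusted p = 0.11), although without M2 replicate 1 they were (-0.34, adjusted p = 0.02). Ptges2 was not called (-0.20, adjusted p = 0.2) but was without M1 replicate 2 (-0.40, adjusted p = 0.0012).

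Nutlin-3a was added to M2 cells to raise p53 activity. A single gene of the 8, Hpgd, was called, and it was lower, against 15.4% of all tested genes (9.56% higher, 5.85% lower). Hpgd read 7.44, 7.23 and 6.97 with nutlin-3a, below the M2 arrays, a fall of 0.66 on the log2 scale (SE 0.19, adjusted p = 0.032). This call was a narrow one: it ended without M2 replicate 1 (adjusted p = 0.14), nutlin-3a replicate 2 (0.081) or nutlin-3a replicate 3 (0.12), and the other probe set differed by -0.15 (adjusted p = 0.61).

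The largest difference with nutlin-3a was that of Ptger2, which read 9.59, 9.90 and 9.71 against 8.64, 8.85 and 8.97 in M2, without overlap. At 0.92 (SE 0.31, 95% interval 0.26 to 1.58) its adjusted p was 0.06, so it was not called in the main fit. With the replicate number as a block it passed (adjusted p = 0.038), which made 2 genes called. It also passed with the 6 arrays alone (adjusted p = 0.0016) and with quantile normalization repeated (adjusted p = 0.048). The main SE draws on all 5 groups, and Ptger2 spread most in M1 (SD 0.95, against 0.17 in M2 and 0.16 with nutlin-3a). Tbxas1 (-0.13, SE 0.06, adjusted p = 0.14), Ptgs2 (-0.29, SE 0.17, adjusted p = 0.29), Ptges (0.27, SE 0.21, adjusted p = 0.43) and Hpgds (0.18, SE 0.12, adjusted p = 0.33) were not called. Nor were Ptges2 (-0.07, 95% interval -0.36 to 0.21) and Ptger4 (0.04, interval -0.26 to 0.33).

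10058F4 was added to M2 cells to block MYC. The EP2 receptor was called higher and 3 enzymes lower, of which the calls of Ptgs2 and Hpgd have limits given below. In all 4 of 8 genes were called, against 20.9% of all tested genes (10.6% higher, 10.2% lower). The median size of the difference was 0.48 and 0.14 over all genes. Ptger2 read 11.10, 11.14 and 11.14, higher than in any other group, and rose 4.96-fold over M2 (2.31, SE 0.31, adjusted p = 0.0001). Ptger4, which encodes the receptor with the same ligand and second messenger, was 9.69 ± 0.03 against 9.43 ± 0.10 (SD, n = 3) and was not called (0.26, 95% interval -0.04 to 0.55, adjusted p = 0.22). Its arrays did not overlap, and with the 6 arrays alone it was called higher (adjusted p = 0.025). The other Ptger4 probe set differed by 0.18 (adjusted p = 0.46).

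Tbxas1 read 10.12, 10.10 and 10.13 with 10058F4, between the M0 and M2 levels, a fall of 0.56 from M2 (SE 0.06, adjusted p = 1.3e-05). Ptgs2 read 3.68, 3.84 and 3.85, under the percentile as in M0, a difference of -0.97 from M2 (SE 0.17, adjusted p = 0.0011). Its size is not exact at these levels, and the other probe set, below the percentile in both groups, differed by -0.07 (adjusted p = 0.87). Hpgd read 7.38, 7.07 and 6.98 and fell by 0.73 (SE 0.19, adjusted p = 0.014), a call that ended without M2 replicate 1 (adjusted p = 0.072), without 10058F4 replicate 2 (0.05) or without 10058F4 replicate 3 (0.061), while the other probe set differed by -0.28 (adjusted p = 0.28). Hpgds was 9.32 ± 0.11 against 9.07 ± 0.21 in M2, not called (0.25, SE 0.12, adjusted p = 0.16) except with the replicate block (adjusted p = 0.038). Ptges (0.39, interval -0.06 to 0.84) and Ptges2 (-0.19, interval -0.48 to 0.09) were not called, except with the 6 arrays alone (adjusted p = 0.027 and 0.038).

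The agents were compared with each other directly, since their comparisons with M2 share the same 3 arrays. There 3 of 8 genes were called, 2 higher and 1 lower with nutlin-3a, against 6.96% of all tested genes (4.24% higher, 2.72% lower). Ptger2 was lower with nutlin-3a than with 10058F4 (-1.39, SE 0.31, adjusted p = 0.013), Tbxas1 was higher (0.42, SE 0.06, adjusted p = 0.00037) and so was Ptgs2 (0.68, SE 0.17, adjusted p = 0.03). The Ptgs2 call ended in 5 of 6 fits that left out an array of either group (adjusted p of 0.071 to 0.14) and with centred arrays (0.054). The other Ptgs2 probe set gave -0.05 (adjusted p = 0.95) and the mean of its probe sets 0.32 (adjusted p = 0.33), and all 10058F4 arrays lay under the percentile. The Ptger2 call ended without nutlin-3a replicate 1 (adjusted p = 0.05). Hpgd, lower with either agent, differed by 0.07 between them (95% interval -0.34 to 0.48, adjusted p = 0.91).

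**Figure D3:**
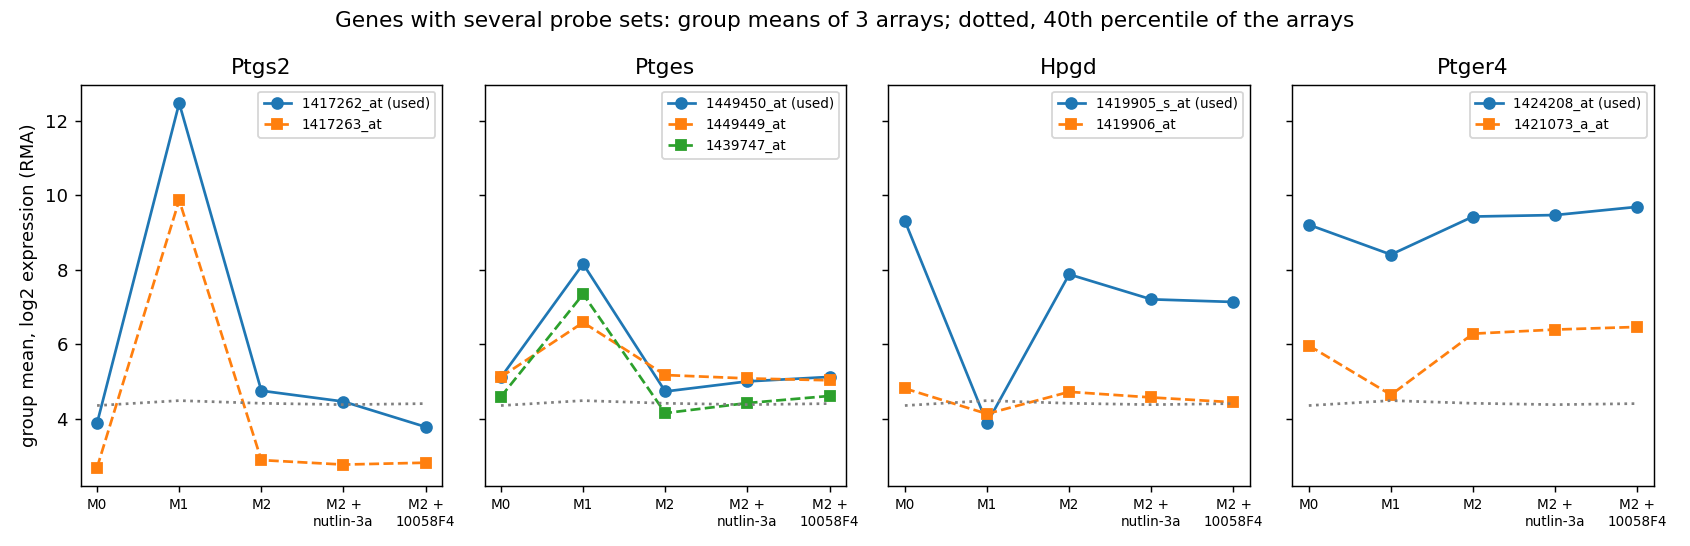
Group means (3 arrays) of every probe set annotated to Ptgs2, Ptges, Hpgd or Ptger4 alone; circles and solid lines mark the probe set used, squares and dashed lines the others, and the dotted line is the 40th percentile of the arrays. All probe sets of Ptgs2 and Ptges peaked in M1, while the dim Hpgd probe set stayed between 4.14 and 4.82.

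Over the 5 groups, the order of Ptger2 was 10058F4 (11.13), nutlin-3a (9.73), M2 (8.82), M0 (8.70) and M1 (7.53). Neighbours M2 and M0 were not called different. Nutlin-3a and M2 were not called different in the main fit but were under several alternative settings. For Tbxas1 it was M2 (10.68), nutlin-3a (10.54), 10058F4 (10.12), M0 (9.65) and M1 (9.31), where nutlin-3a and M2 were not called different. For that gene 10058F4 was not compared with M0, and M0 and M1 were not called different with centred arrays. For Hpgd it was M0 (9.31), M2 (7.88), nutlin-3a (7.21), 10058F4 (7.14) and M1 (3.89), where the agents were not called different from each other. The step from 10058F4 to M1 was not compared. Group means of the other genes are in the plot of values by group.

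The genes whose 5 group means most resembled each member, after centring, were found by the root mean square difference of those means, as a description. For Ptger2 they were Wee1 (0.20), a kinase that delays entry into mitosis, Tsc22d3 (0.29), a glucocorticoid-induced gene, and Fam107b (0.31). For Ptgs2 they were Clic5 (0.35), the chemokine Cxcl11 (0.37) and the cytokine Il6 (0.44), and for Ptges Fam114a1 (0.07), Gpat3 (0.10) and Rapgef2 (0.11). For Hpgd they were Igfbp4 (0.22), St8sia4 (0.42) and Mamdc2 (0.43), for Hpgds Calcrl (0.08), Nxpe4 (0.13) and Zfyve28 (0.16), for Tbxas1 Nabp1 (0.04), Slc22a5 (0.06) and Polr3k (0.08), with none sought for Ptges2, whose means spanned 0.20, and for Ptger4 Dstyk (0.05), Fam136a (0.07) and Triqk (0.07).

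Around these 8 genes, the supply of arachidonate was read from a list of 26 genes that release, trap or build it, of which 25 were tested. In M1 against M0 cells 6 rose and 12 fell, with a median of -0.22 (all genes, -0.005); the share called, 72%, was near the 72.7% of all tested genes. Pla2g4a, the cytosolic phospholipase that feeds COX-2, was the large rise, from 7.80 ± 0.24 to 10.95 ± 0.32 (3.16, SE 0.17, adjusted p = 8.1e-10). The large falls were those of Daglb (-3.60, SE 0.10), which makes the lipid 2-AG, the acyl-CoA ligase Acsl3 (-2.95, SE 0.13) and the desaturase Fads1 (-2.56, SE 0.15). In M2 against M0 cells 6 rose and 4 fell (40% called, all genes 31%; median -0.00), among them the secreted phospholipase Pla2g5 (0.93, SE 0.12), the lysosomal phospholipase Pla2g15 (0.93, SE 0.08) and Pla2g12a (0.78, SE 0.17), with Acsl3 lower (-0.89, SE 0.13).

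Pla2g4a itself was not called in M2 against M0 (-0.06, SE 0.17, adjusted p = 0.83). It fell with 10058F4, from 7.74 ± 0.29 to 7.00 ± 0.15 (-0.73, SE 0.17, adjusted p = 0.0075). With that agent 6 arachidonate genes rose and 5 fell (44% called, all genes 20.9%; median -0.03), including the triglyceride lipase Pnpla2 (1.18, SE 0.08), Acsl3 (0.79, SE 0.13) and Dagla (-0.70, SE 0.10). With nutlin-3a 3 rose, Acsl3 (0.54, SE 0.13), Pla2g5 (0.51, SE 0.12) and Pnpla2 (0.48, SE 0.08), and Daglb fell (-0.30, SE 0.10), with a median of -0.03 and 16% called (all genes 15.4%). Without nutlin-3a replicate 2, 1 gene was called in place of 4.

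The other prostanoid enzymes, receptors and transporters formed a list of 21 genes, of which 15 were tested. In M1 against M0 cells 5 rose and 5 fell (66.7% called, all genes 72.7%; median 0.14). Ptger1, the PGE2 receptor EP1, was among the rises (0.58, SE 0.14, adjusted p = 0.0017), unlike EP2 and EP4. The falls were led by Ptgfrn (-2.74, SE 0.17), a partner protein of the PGF2-alpha receptor whose M1 mean of 4.46 lay under the percentile, so that its size is not exact, followed by Ptgr2 (-1.34, SE 0.10), which reduces the 15-keto product of Hpgd, the carbonyl reductase Cbr3 (-1.32, SE 0.13) and Prxl2b (-1.19, SE 0.09), a prostaglandin F synthase. Ptgir, the prostacyclin receptor, which like EP2 raises cyclic AMP, rose from 6.17 ± 0.09 to 7.30 ± 0.24 (1.13, SE 0.11). In M2 Ptgir rose to 7.88 ± 0.05 (1.71, SE 0.11, adjusted p = 6.4e-08), the single rise of the list there beside 5 falls (40% called, all genes 31%; median -0.04), of which Prxl2b was the largest (-0.76, SE 0.09).

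With 10058F4, 1 gene of that list rose and 3 fell (26.7% called, all genes 20.9%; median 0.07), 2 in all without M2 replicate 3 or 10058F4 replicate 1. Cbr3 rose from 9.55 ± 0.13 to 11.15 ± 0.07 (1.60, SE 0.13, adjusted p = 9.4e-07), and Ptgir fell by 0.72 (SE 0.11), opposite to Ptger2, with Abcc4 (-0.39, SE 0.12), an exporter of prostaglandins, and their importer Slco2a1 (-0.36, SE 0.10). With nutlin-3a Cbr3 was the gene called (0.62, SE 0.13, adjusted p = 0.0049; 6.67% called, all genes 15.4%; median 0.02).

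The leukotriene and lipoxygenase branch uses the same arachidonate, and 16 of its 23 listed genes were tested. In M1 against M0 cells 5 rose and 9 fell (87.5% called, all genes 72.7%; median -0.43): Fpr2, a receptor of formyl peptides and lipoxin, rose by 5.03 (SE 0.21) and the leukotriene receptor Cysltr2 by 3.08 (SE 0.14), while Mgst3 (-2.79, SE 0.14) and the epoxide hydrolase Ephx1 (-2.68, SE 0.18) fell. In M2 cells 2 rose and 7 fell (56.2% called, all genes 31%; median -0.34), led by Fpr2 (-1.63, SE 0.21) and Mgst2 (-0.74, SE 0.09). Ltc4s, the leukotriene C4 synthase, rose with nutlin-3a from 6.39 ± 0.10 to 7.80 ± 0.03 (1.41, SE 0.12, adjusted p = 5.4e-06), beside Ephx1 (0.98, SE 0.18) and with Cysltr1 lower (-0.55, SE 0.10; list median -0.02, 18.8% called, all genes 15.4%). With 10058F4 Cysltr1 fell by 1.41 (SE 0.10, adjusted p = 3.4e-07) and the chemerin receptor Cmklr1 by 0.44 (SE 0.12), none rose (12.5% called, all genes 20.9%; median -0.11), and Ltc4s was at 6.43 ± 0.03. Without M2 replicate 1, 10058F4 replicate 2 or 10058F4 replicate 3, 1 of those calls was left.

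**Figure D4:**
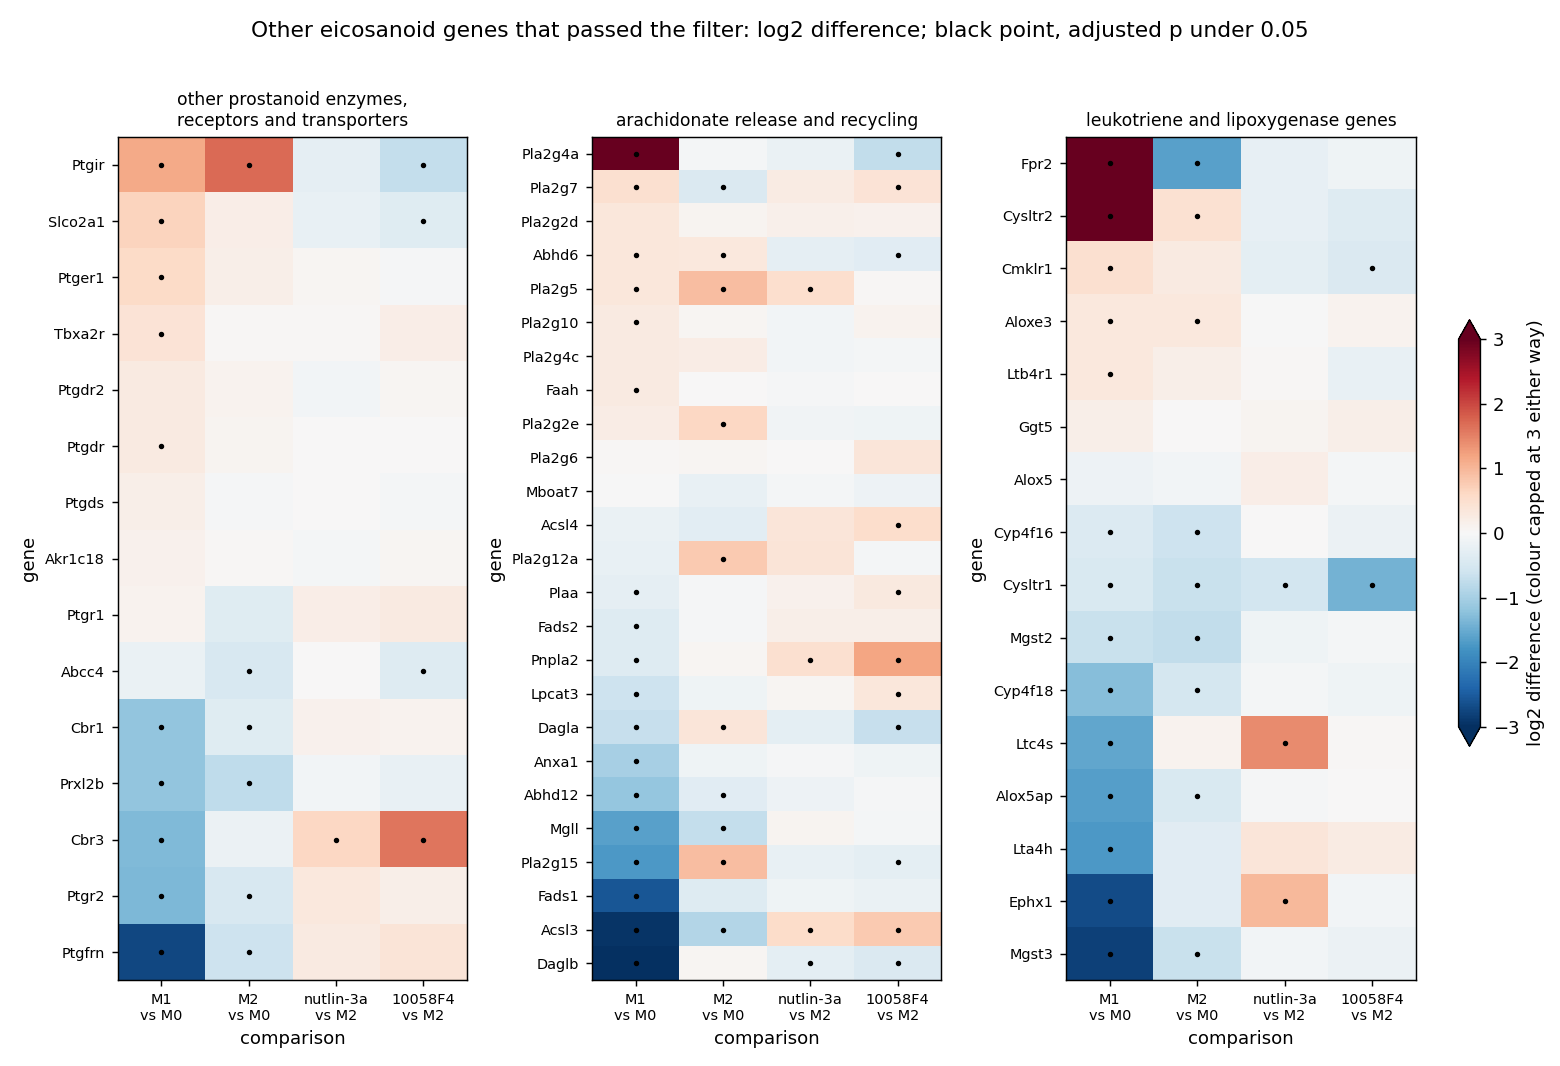
Log2 differences of the tested genes of 3 lists (rows, sorted by M1 against M0) in 4 comparisons (columns); red is higher and blue lower, with colours capped at 3 either way, and a black point marks an adjusted p under 0.05. Pla2g4a, Fpr2 and Cysltr2 stand out as rises in M1, Cbr3 as a rise with 10058F4 and Ltc4s with nutlin-3a.

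Behind EP2 and EP4, the proteins that make, read and destroy cyclic AMP were taken as a list of 30 genes, 27 of them tested. In M1 against M0 cells 5 rose and 18 fell (85.2% called, all genes 72.7%; median -0.57), with the phosphodiesterase Pde3b (-3.72, SE 0.24) and the adenylyl cyclase Adcy9 (-2.65, SE 0.17) lower and the cyclic AMP-induced repressor Crem (2.42, SE 0.09) and the phosphodiesterase Pde4b (2.41, SE 0.11) higher. The M1 mean of Pde3b, 4.04, lay under the percentile, so its size is not exact. In M2 cells 6 rose and 8 fell (51.9% called, all genes 31%; median -0.12), led by the receptor kinase Grk5 (-1.47, SE 0.14) and Prkar2b (-1.04, SE 0.14). With 10058F4 5 rose and 8 fell (48.1% called, all genes 20.9%; median 0.01), among them Pde4d (1.23, SE 0.17), Pde8a (0.65, SE 0.08) and the receptor adaptor Arrb1 (-0.78, SE 0.09). With nutlin-3a none rose and 5 fell (18.5% called, all genes 15.4%; median -0.02), Arrb1 by 0.39 (SE 0.09), and 3 were called without M2 replicate 1 or 3 or without nutlin-3a replicate 1 or 2.

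Genes known to answer cyclic AMP were listed as 18, of which 16 were tested; many also answer LPS or glucocorticoids. With 10058F4 7 rose and 3 fell (62.5% called, all genes 20.9%, median 0.21): the phosphatase Dusp1 (2.94, SE 0.13), the clock gene Per1 (2.44, SE 0.11) and the kinase Sik1 (1.45, SE 0.16) rose, and Rgs2 fell by 1.77 (SE 0.17). The tested genes not called with it were Nr4a1 (0.25), Nr4a2 (-0.08), Nr4a3 (-0.21), Pde4b (0.03), Ccl2 (-0.21) and Socs3 (0.18), with adjusted p-values from 0.17 to 0.89. A response to cyclic AMP was not tested. With nutlin-3a 5 rose and 2 fell (43.8% called, all genes 15.4%; median 0.25), with Per1 (1.24, SE 0.11) and Dusp1 (1.07, SE 0.13) higher and Rgs2 (-1.38, SE 0.17) and Il10 (-0.77, SE 0.12) lower. In M1 cells 9 rose and 2 fell (68.8% called, all genes 72.7%; median 1.30), from Socs3 (6.93, SE 0.11) and Ccl2 (5.89, SE 0.25) to Rgs2 (-3.44, SE 0.17). In M2 cells 3 rose and 4 fell (43.8% called, all genes 31%; median -0.06), with Fosl2 (1.73, SE 0.10) the largest rise and Thbs1 (-2.30, SE 0.25) the largest fall.

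Transcription factors known to act on Ptgs2 were listed as 20, of which 18 were tested. In M1 against M0 cells 10 rose and 4 fell (77.8% called, all genes 72.7%; median 0.53), with Irf1 (2.80, SE 0.08), Cebpb (1.74, SE 0.09) and Cebpa (-2.84, SE 0.14) and the lipid receptor Pparg (-2.80, SE 0.11) the largest. In M2 cells 8 rose and 3 fell (61.1% called, all genes 31%; median 0.22), among them Irf1 (1.10, SE 0.08) and Fos (-1.13, SE 0.17). With 10058F4 5 rose and 10 fell (83.3% called, all genes 20.9%; median -0.35): the NF-kappa-B subunit Relb (-1.03, SE 0.06), Irf1 (-0.99, SE 0.08) and Junb (-0.95, SE 0.06) were lower and Fos higher (1.91, SE 0.17). With nutlin-3a 4 rose and 5 fell (50% called, all genes 15.4%; median -0.14), with Cebpd (0.74, SE 0.24) and Junb (-0.49, SE 0.06) the largest. That count of 9 came to 3 or 4 on leaving out any 1 of the 6 arrays, and to 4 with no filter on low values.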

How the data were processed

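The values the authors deposited are on a log2 scale, 1 for each probe set and array. They come from RMA, per the submitters' processing notes, whose version the sources used here do not give; that they are log2 was read from their range. RMA forces the arrays to a common distribution, so a shift of most genes one way would be hidden. Of 45101 probe sets, 34945 had 1 gene symbol, 932 several and 9160 none in the platform annotation, with symbols updated through RefSeq (GRCm38.p6, 34741 IDs matched). Groups and replicate numbers came from sample titles. limma 3.58.1 (R 4.3.3; Python 3.11.15, pandas 2.3.3 and matplotlib 3.10.9 for tables and plots) was fitted with a mean for each of the 5 groups over all 15 arrays (residual degrees of freedom 10, prior 3.86), Benjamini-Hochberg adjusted over 13703 genes. The fit was tested on simulated data with known changes, for 10058F4 against M2. It called 46% of 50 changes of 1.25-fold, 74% of 50 of 1.5-fold and 96% of 50 of 2-fold. Of 166 calls 8 were false. A gene not called can therefore hold a small change. The simulated noise was independent between arrays, and few genes were changed, while the real comparison had 2858 calls. The simulated rates therefore need not hold for the data.

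The members and lists were chosen with earlier results of these data known. Named list genes are up to 4 called genes per list and comparison with the largest change. Values of Ptgir and Ptger1 in M1, of Pla2g4a in M2 and of Ltc4s with 10058F4 were added after they were seen. So were those of the cyclic AMP genes not called with 10058F4. Same-numbered arrays' deviations from group means correlated with r of 0.23 or more in each pair of M2 with M0 (0.23 to 0.42), nutlin-3a (0.34 to 0.38) and 10058F4 (0.31 to 0.37) and between the agents (0.34 to 0.41), above the limit of 0.1 for pairing, but not in M1 with M0 (0.06 to 0.26) or M2 (0.06 to 0.15). Alternatives were other filters, probe set choices, normalizations and fits, the replicate block, and each array left out.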

Additional observations from a re-analysis of the deposited data

How the results depend on the processing

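Over 750 single-gene values under alternative settings for the 8 prostaglandin genes, 694 kept direction and side of the threshold and 19 turned sign. With those sign changes included, 25 lost the call and 14 gained it; the causes were not tested. Ptges2 turned in M1 against M0 to 0.28 with quantile normalization repeated and 0.30 with centred arrays (now called), with leave-one-out values from -0.22 to 0.12, and in M1 against M2 to 0.03 and 0.04. Hpgds in M1 against M2 turned to 0.02 with centred arrays. Ptger4 with nutlin-3a turned to -0.03 under either normalization, with leave-one-out values from -0.05 to 0.12. Hpgd between the agents ranged from -0.04 to 0.19 on leaving out an array. Other probe sets, an alternative chosen after seeing the data, gave Ptges 0.05 in M2 against M0, -0.08 with nutlin-3a, -0.14 with 10058F4 and 0.05 between the agents, and Ptgs2, called at 0.68, -0.05 between the agents.

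With nutlin-3a, 1 of the 8 genes was called, against 0 with the mean of all probe sets or with specific probe sets, 3 with quantile normalization, 2 with 6 arrays alone, 2 with the replicate block and 0 to 1 on leaving out an array. Of other prostanoid genes 1 was called, against 3 with 6 arrays alone or quantile normalization, and 2 with centring, the mean of all probe sets, the replicate block, the stricter filter or trended and robust eBayes. Arachidonate genes numbered 4, against 7 with the replicate block, 2 with specific probe sets and 1 to 5 on leaving out an array. Leukotriene genes numbered 3, against 5 with 6 arrays alone; cyclic AMP signalling genes 5, against 8 with the mean of all probe sets and 3 to 4 on leaving out an array; and factors acting on Ptgs2 9, against 4 with no filter and 3 to 4 on leaving out an array. With 10058F4, 6 arrays alone called 7 of the 8 genes in place of 4, and 4 leukotriene genes in place of 2, where leaving out an array gave 1 to 2. Other prostanoid genes numbered 2 to 3 on leaving out an array. The share of all tested genes called under each alternative setting is not given here. A changed count can therefore not be ascribed to these genes rather than to all genes. The replicate block also called Hpgds in M1 against M2 (adjusted p = 0.024), where replicate numbers did not pair the arrays.

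Levels near or under the 40th percentile limit what fold changes show. Among them were Ptgs2 outside M1, Hpgd, Pde3b and Ptgfrn in M1, Pla2g5 in M0 and Il10 with nutlin-3a.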
